A study of Homo sapiens with 6 samples.

Results

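The genes described here are 40 transcripts of the ATF4 response: 20 cytosolic aminoacyl-tRNA synthetases and 20 other genes known as ATF4 targets or partners, ATF4 itself among them. They were chosen by symbol, as the rows of the deposited table whose gene name equals a member, and all 40 were found among its 37879 rows. The data are 6 Illumina HumanWG-6 v3 BeadChip arrays of total RNA from HEK293T cells, a human embryonic kidney line that carries the SV40 large T antigen. In 3 samples (control) the cells had been transfected with an empty vector, and in 3 samples (Stau1) with a plasmid coding for Stau155-FLAG, a tagged isoform of the RNA-binding protein Staufen1. Cells of both groups had been held in prometaphase with nocodazole, a drug that blocks spindle assembly, at 50 ng/ml for 15 h per the labels. The study's methods describe a plasmid of this name driven by a Rous sarcoma virus promoter, and do not name the promoter again for these arrays. The study asked whether making extra Staufen1 alters transcript levels in cells arrested at this stage. The labels number the replicates but do not say that they were separate cultures, so each p-value below measures the spread between these samples, which may be technical.

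ATF4 is a transcription factor that is made when kinases phosphorylate the initiation factor eIF2, which lowers translation in general and raises translation of the ATF4 mRNA. It switches on genes for amino acid synthesis, amino acid uptake and tRNA charging, together with feedback genes that restore translation and, under lasting stress, genes linked to cell death. Aminoacyl-tRNA synthetases join each amino acid to its tRNA, fall into 2 catalytic classes, I and II, and several of them are held in a large multisynthetase complex.

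ATF4 and its C/EBP partners bind composite DNA elements, often written TGATGNAA, and the promoters of the members were searched for these letters on both strands. The windows are those of RefSeq (GRCh38.p14), from 250 bases before to 50 bases after each start, with position 1 at the start and no position 0. Some members had more than 1 window, among them ASNS with 2. The start meant for a matched member below is that of the window that held its match. Older symbols in the array table (AARS, now AARS1, and so on) were matched to current symbols, and 33 of the 40 members had a window, 16 synthetases and 17 others. The 7 with no entry included LARS, VARS, YARS, PSPH, SLC7A11 and SHMT2. The letters TGATGNAA occurred in 12 of the 33 members (36.4%), 7 synthetases (43.8% of 16) and 5 others (29.4% of 17), against 4.46% of all 27305 genes with a window and 3.62% of all 35116 windows. The narrower form TGATGCAA, all of whose matches are also matches to the wider form, occurred in 8 of the 33 (24.2%), 6 of them synthetases, against 1.08% of all genes and 0.866% of all windows. The shares of genes count a gene with a match in any window, as for the members, while the shares of windows count each window. Because the members were listed as known ATF4 genes, no test was made of these shares. A match is a description of the letters and not a site of binding. The matches are shown because they are the sequence that these synthetase and amino acid genes have in common, each on the strand that reads TGATGNAA, with the match in capitals and the flanking bases in lower case:
AARS: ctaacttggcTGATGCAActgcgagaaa
CARS: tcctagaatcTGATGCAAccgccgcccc
GARS: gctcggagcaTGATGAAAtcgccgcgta
IARS: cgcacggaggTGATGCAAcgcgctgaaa
MARS: aatccctcgcTGATGCAAccggaaccgg
NARS: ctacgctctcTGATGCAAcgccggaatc
TARS: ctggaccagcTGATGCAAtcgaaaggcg
CEBPG: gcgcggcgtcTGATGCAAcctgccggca
CHAC1: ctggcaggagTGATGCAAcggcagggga
ASNS: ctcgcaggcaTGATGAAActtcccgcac
ATF3: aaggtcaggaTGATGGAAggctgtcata
SLC3A2: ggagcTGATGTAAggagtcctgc

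In genome coordinates these stretches were chr16:70289676-70289703 (+ strand) for AARS, chr11:3057408-3057435 (+) for CARS, chr7:30594835-30594862 (-) for GARS, chr9:92293693-92293720 (+) for IARS, chr12:57488054-57488081 (-) for MARS, chr18:57621805-57621832 (-) for NARS and chr5:33440957-33440984 (-) for TARS. Those of the other members were chr19:33374061-33374088 (+) for CEBPG, chr15:40953252-40953279 (-) for CHAC1, chr7:97872459-97872486 (-) for ASNS, chr1:212565206-212565233 (+) for ATF3 and chr11:62881726-62881748 (-) for SLC3A2. In the synthetases the match lay close to the start or just inside the transcript, from -33 in GARS to 22 in NARS, except in AARS, where it began at -187. In CEBPG it began at -42 and in ASNS at -68, and it lay farther upstream in ATF3 (-191) and CHAC1 (-209). All the matched synthetases but NARS carried it on the strand opposite to the gene. ASNS is given at more length because its transcript differed most evenly between the groups, as described further on. The 120 bases before its start, chr7:97872409-97872528 on the - strand, read as follows, with the match in capitals:
ASNS: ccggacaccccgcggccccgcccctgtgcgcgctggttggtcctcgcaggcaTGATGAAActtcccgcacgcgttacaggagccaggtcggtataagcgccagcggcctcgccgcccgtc

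Signal intensities were background-corrected, quantile-normalized and put on a log2 scale, and all levels below are log2 intensities on that scale. They are compared between arrays for the same gene and not between genes. A row was kept for testing if its detection p-value, which sets a gene's intensity against negative control beads, was under 0.05 on at least 3 of the 6 arrays. This kept 13285 rows, and 38 of the 40 members passed, 19 synthetases and 19 others. Between 12730 and 13469 rows were detected per array, with a median of 40 to 41 beads per row. Pearson's r between arrays over the kept rows ranged from 0.987 to 0.996, with control replicates 1 and 3 the least alike. All 10 mitotic markers were detected on every array, as were 7 of 10 genes expected in HEK293T cells, and their summed levels (2 to the log2 value) overlapped, from 35297 to 36613 in control and 35651 to 37018 with Stau1 for the mitotic list, and from 12792 to 13857 and 12896 to 13038 for the HEK293T list. Of the HEK293T list 9 were kept, with 8 lower and 1 higher (median -0.058). With median scaling 3 were lower and 6 higher, where the median of all kept rows was 0.068. In 2 of the 9, VIM (-0.058) and KRT8, all Stau1 arrays lay below all control arrays, against 3.4% of all kept rows. With median scaling this held for KRT8 only. KRT8, a keratin, measured 7.38, 7.24 and 7.26 in control and 6.94, 6.33 and 6.76 with Stau1, a difference of -0.61 (SE 0.17) with groups that did not overlap, or -0.070 with the background inferred from all rows. CENPF, a kinetochore protein, measured 9.24, 9.59 and 9.05 in control and 9.09, 8.80 and 8.90 with Stau1, a difference of -0.36 (SE 0.15). The adjusted p of KRT8 and of CENPF was 0.999 in limma, and their part in the results was not tested. On the same list, PAX2, a kidney lineage factor expected in HEK293T cells, was detected on 1 array. Of 8 markers of other cell types, 6 were detected on no array, and COL1A1 and PECAM1 were detected on all 6, with changes of -0.26 (SE 0.19) and -0.20 (SE 0.16). All Stau1 arrays of PECAM1 lay below all control arrays, though with median scaling its groups overlapped. The summed level of the 8 ran from 297 to 326 in control and from 286 to 314 with Stau1, and the part of other cells in the results was not tested. In RNA from whole cultures, fewer cells of a kind and less RNA per cell cannot be told apart.

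STAU1, the gene on the plasmid, measured 11.21, 11.39 and 11.37 on the control arrays and 11.41, 11.53 and 11.48 on the Stau1 arrays. Each Stau1 array was above each control array, and the fitted difference was 0.15 (SE 0.09), with an adjusted p of 0.999 in limma. Whether the probes of this row lie in the plasmid's insert was not examined. The study's western blot showed the tagged protein in the transfected cells, in a smaller amount than the endogenous one.

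No member of the ATF4 programme differed between the groups past the threshold. In limma, with Benjamini-Hochberg adjustment over all kept rows, 0 members had an adjusted p under 0.05, neither among the 19 synthetases nor among the 19 other members. The background was the same, with 0 of 13285 rows called (0%), and the lowest adjusted p of any row was 0.999. Without the detection filter, again 0 of 37879 rows were called (0%). At an unadjusted p under 0.05 there were 2 members, ASNS and SLC7A11, among 38, against 3.73% of all kept rows. Both were lower with Stau1, a direction in which 1.32% of all kept rows passed, but SLC7A11 was kept only through its detection on the control arrays, which favoured that direction. They were also the 2 of 38 members whose Stau1 arrays all lay below the control arrays, as in 3.4% of all kept rows, and 0 of 38 lay wholly above, against 4.51%. The median log2 change was 0.018 for the synthetases and 0.013 for the other members, beside -0.0021 for all kept rows, with 11 of 19 higher and 8 of 19 lower in either set. The changes ran from -0.21 (FARSB) to 0.22 (AARS) among the synthetases and from -0.37 (SLC7A11) to 0.18 (STC2) among the others.

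The intervals show what sizes of change these arrays leave possible. The 95% interval lay within 1.5-fold in either direction for 36 of the 38 members, against 11516 of the 13285 kept rows. FARSB and SLC7A11 were the exceptions, and both were dim. CHAC1 was also close to background, with detection p-values from 0.0158 to 0.0264, although its interval lay within 1.5-fold. For such rows the interval bounds the measured difference and not the change of the transcript. The median SE of the change was 0.10 for the synthetases, 0.12 for the other members and 0.15 for all kept rows.

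**Figure D1:**
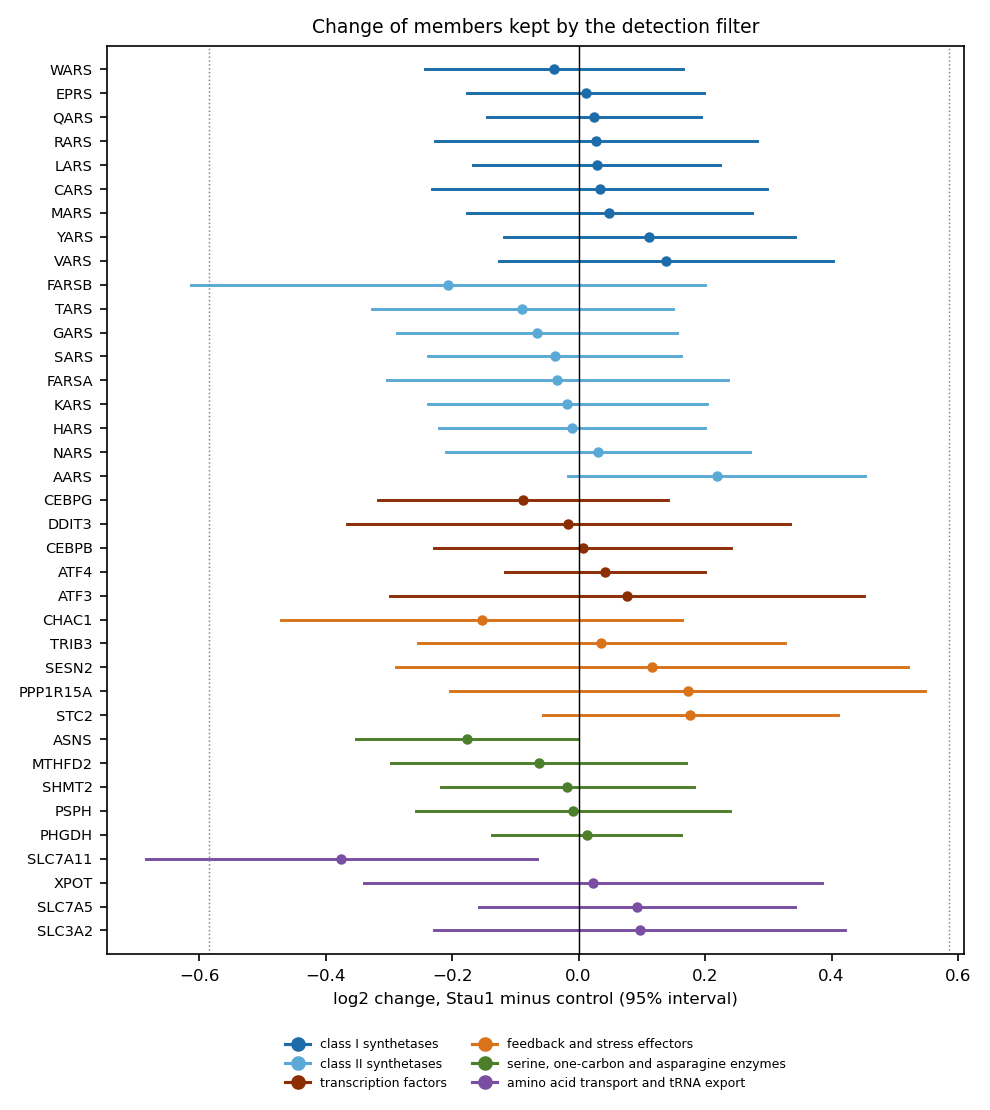
Log2 change (Stau1 minus control, x axis) with its 95% interval for 37 of the 38 members kept by the filter (y axis), coloured by role and ordered within each role, with dotted lines at 1.5-fold in either direction. All intervals but those of ASNS and SLC7A11 cross 0, and only those of FARSB and SLC7A11 reach past a dotted line.

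Among the transcription factors, ATF4 was the steadiest of the 5. It measured 13.10, 13.16 and 13.15 in control and 13.19, 13.13 and 13.20 with Stau1. The values interleaved, and the difference was 0.042 (SE 0.07, 95% interval -0.12 to 0.20). With median scaling it was 0.11, where the median of all kept rows was 0.068. The interval bounds the difference between the groups in this row and not the level of the mRNA. The detection p of the row, which combines several probes, was 0.018 and 0.036 on control replicates 1 and 2. It was at most 4.8e-05 on the other arrays. ATF4 protein, which is set mainly by translation, was not measured.

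ATF3, a stress-induced repressor that ATF4 switches on, passed the detection threshold on 1 control and 2 Stau1 arrays, in a row whose detection p combines several probes. It measured 7.86, 7.64 and 8.28 in control and 7.97, 8.17 and 7.88 with Stau1. DDIT3 (CHOP), the factor linked to death under lasting stress, measured 9.08, 8.64 and 9.28 in control and 8.93, 9.18 and 8.85 with Stau1. For these genes the control arrays spanned the Stau1 arrays entirely, and the differences were 0.077 (SE 0.17) and -0.016 (SE 0.16). CEBPB and CEBPG, which pair with ATF4 on its elements, changed by 0.0062 and -0.088, each with groups that overlapped.

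The feedback and stress effectors had the largest median SD over control arrays of any group of members by role, 0.22. Within this group CHAC1 was at 0.065 and STC2 at 0.15. PPP1R15A (GADD34), which recruits the phosphatase that restores eIF2, measured 9.49, 9.0 and 9.84 in control, the widest control range of any member at 0.84, and 9.71, 9.49 and 9.64 with Stau1. SESN2, a sensor that restrains growth signalling when leucine is scarce, measured 7.01, 7.27 and 7.73 in control and 7.64, 7.41 and 7.31 with Stau1. TRIB3, a pseudokinase that dampens ATF4 and CHOP, measured 9.86, 9.50 and 9.89 in control and 9.97, 9.63 and 9.76 with Stau1. In each of these the Stau1 arrays lay closer together than the control arrays and inside or near their range, and the differences were 0.17 (SE 0.17), 0.12 (SE 0.19) and 0.036 (SE 0.13). STC2, a secreted glycoprotein of the unfolded protein response, measured 10.05, 10.12 and 10.35 in control and 10.33, 10.33 and 10.38 with Stau1. Its Stau1 arrays were nearly equal, and only control replicate 3 reached their level, for a difference of 0.18 (SE 0.11). CHAC1, which breaks down glutathione, measured 6.03, 6.07 and 5.94 in control and 5.99, 5.66 and 5.92 with Stau1, a difference of -0.15 (SE 0.15) in which Stau1 replicate 2 stood lowest. It was -0.055 without that array and -0.0083 with the background inferred from all rows.

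Of the 5 biosynthetic enzymes tested, ASNS was the only one whose groups did not overlap after quantile normalization. ASNS, asparagine synthetase, makes asparagine and is a standard readout of ATF4 activity. It measured 12.22, 12.15 and 12.19 in control and 12.003, 12.07 and 11.96 with Stau1. All Stau1 arrays lay below all control arrays, and the arrays of each group differed by less than the groups did. The difference was -0.18 (SE 0.08, 95% interval -0.35 to -0.00082), with an unadjusted p of 0.0491 and an adjusted p of 0.999 in limma, and an exact permutation test gave 0.1, the smallest value that 3 arrays against 3 allow. With arrays scaled on their medians in place of quantiles the groups overlapped and the difference was -0.081, where the median of all kept rows was 0.068.

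The serine and folate enzymes gave small differences. PHGDH, the first enzyme of serine synthesis, measured 14.31, 14.35 and 14.36 in control and 14.36, 14.28 and 14.42 with Stau1, a difference of 0.013 (SE 0.07). PSPH, the last enzyme of that route, SHMT2, which passes serine carbon to folate in mitochondria, and MTHFD2, which acts on the folate made there, changed by -0.0090, -0.018 and -0.063, all with overlapping groups. MTHFD2 was detected on 2 control and 3 Stau1 arrays. PSAT1, the transaminase between PHGDH and PSPH, did not pass the filter although its deposited intensities were between 1525 and 2519, because the detection p of its row, which combines several probes, was between 0.318 and 0.416. Its levels were 10.92, 11.04 and 10.94 in control and 10.84, 10.87 and 10.86 with Stau1. All Stau1 arrays were below all control arrays, by 0.11 in the mean. The share of rows that separate in this way without the filter is not given here, so PSAT1 is not counted with the separated members. In a fit without the filter the change was -0.11 (SE 0.10), with an adjusted p of 0.999 in limma.

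Among the genes of amino acid transport and tRNA export is SLC7A11, the cystine carrier that supplies glutathione synthesis. It measured 5.56, 5.44 and 5.68 in control and 5.12, 5.04 and 5.39 with Stau1. Again all Stau1 arrays were below all control arrays. The fitted difference was -0.37 (SE 0.14, 95% interval -0.68 to -0.07), with an unadjusted p of 0.0209 and an adjusted p of 0.999 in limma, and an exact permutation test gave 0.1. This gene was at the detection limit: it was detected on all 3 control arrays and on no Stau1 array, so it entered the test only through the group where it was higher and its Stau1 level is only a bound. As a bound, its Stau1 mean was replaced by the mean of the lowest signal detected on each Stau1 array among rows of 1 probe. Against this value the control mean was 1.13-fold higher. That figure has no error attached and was taken with the main background correction only, so it is not a firm minimum. The fitted size also rested on the background correction, with -0.20 when none was made and -0.019 when the background was inferred from all rows.

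SLC3A2, the heavy chain that SLC7A11 and SLC7A5 share, measured 9.65, 9.27 and 9.95 in control and 9.71, 9.71 and 9.74 with Stau1. The Stau1 arrays were within 0.03 of each other in the middle of a wide control range, and the difference was 0.096 (SE 0.15). SLC7A5, the light chain that imports leucine, and XPOT, which carries tRNA out of the nucleus, changed by 0.092 (SE 0.12) and 0.023 (SE 0.17). SLC3A2 and PHGDH are given in full because of their roles beside SLC7A11 and PSAT1, and were chosen after their values were seen.

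**Figure D2:**
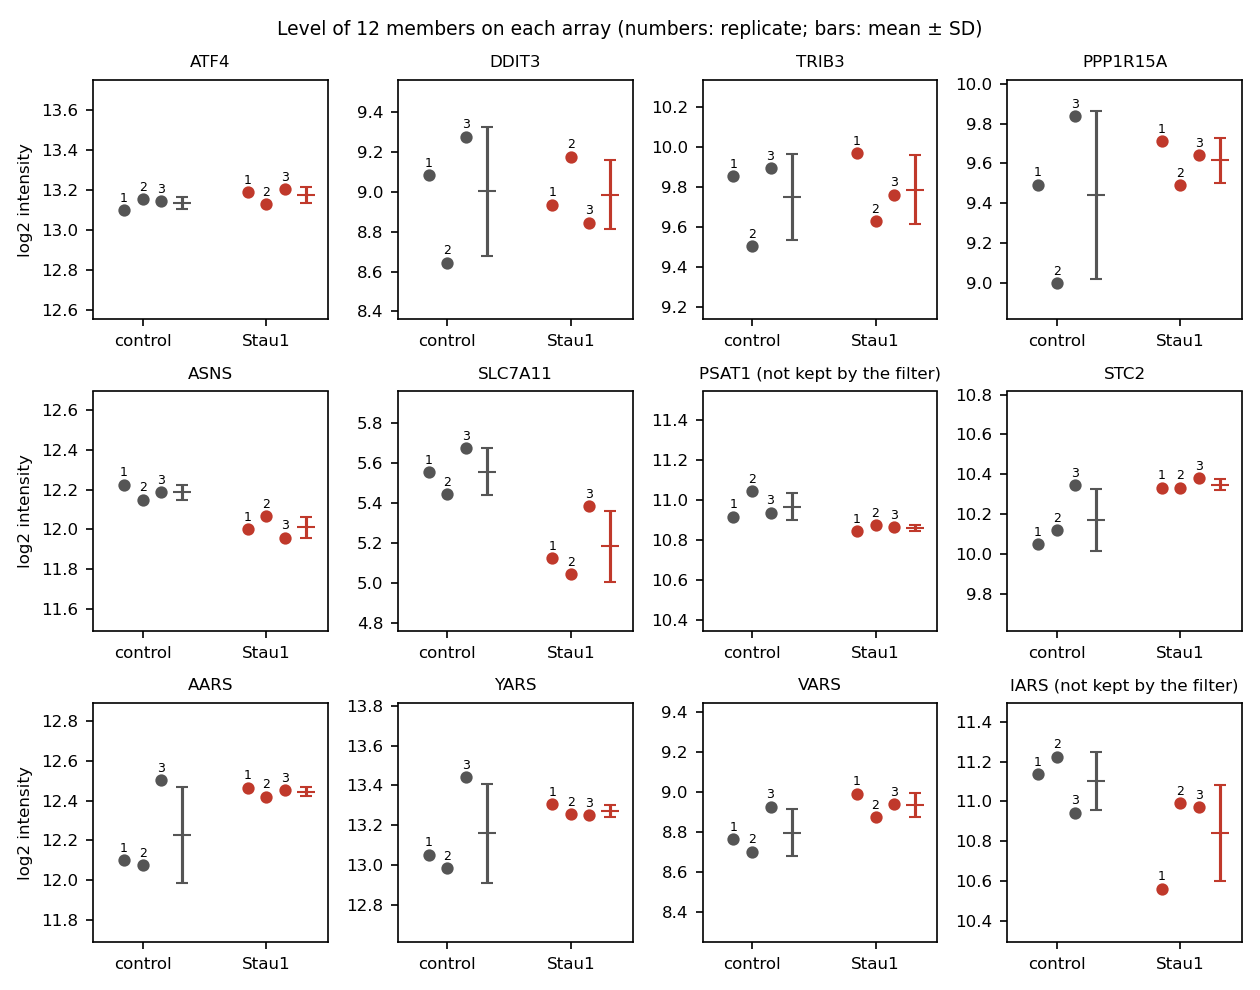
Log2 intensity (y axis) of 12 members on each array, in control (grey) and Stau1 (red) samples, with the replicate number beside each point and bars for the mean ± SD of 3 arrays; every panel spans the same log2 range. In ASNS and SLC7A11, and in PSAT1 (not kept by the filter), all Stau1 points are below all control points, while in AARS and YARS control replicate 3 lies with or above the Stau1 points.

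The changes of the synthetases were centred near 0. No synthetase had groups without overlap. AARS, which charges alanine tRNA, showed the largest rise in mean level. It measured 12.10, 12.07 and 12.50 in control and 12.46, 12.42 and 12.45 with Stau1. Control replicates 1 and 2 were low and control replicate 3 was as high as any Stau1 array, so the groups overlapped, and the difference was 0.22 (SE 0.11, 95% interval -0.016 to 0.45), with an adjusted p of 0.999 in limma. YARS, for tyrosine, likewise had control replicates 1 and 2 lowest and control replicate 3 highest, with 13.05, 12.98 and 13.44 in control and 13.31, 13.26 and 13.25 with Stau1, a difference of 0.11 (SE 0.11). VARS, for valine, measured 8.77, 8.70 and 8.93 in control and 8.99, 8.87 and 8.94 with Stau1, a difference of 0.14 (SE 0.12).

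FARSB, the beta subunit of the phenylalanine enzyme, was the dimmest synthetase against background, with detection p-values from 0.00922 to 0.0290. It measured 6.43, 6.06 and 5.98 in control and 6.04, 6.22 and 5.58 with Stau1, a difference of -0.21 (SE 0.19). The difference was -0.023 without Stau1 replicate 3, -0.070 without control replicate 1, -0.34 without Stau1 replicate 2 and -0.012 with the background inferred from all rows. Its partner subunit FARSA changed by -0.033 (SE 0.12). RARS, for arginine, measured 11.86, 12.31 and 12.32 in control and 12.10, 12.29 and 12.18 with Stau1. Control replicate 1 was its lowest array, and the difference was 0.027 (SE 0.12).

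IARS, for isoleucine, was the synthetase that the filter left out. Its intensities were between 1452 and 2533, but the combined detection p of its row was between 0.0542 and 0.297. It measured 11.14, 11.22 and 10.94 in control and 10.56, 10.99 and 10.97 with Stau1, where Stau1 replicate 1 stood lowest. Without the filter its change was -0.26 (SE 0.13), with an adjusted p of 0.999 in limma.

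The remaining 13 synthetases lay between -0.089 and 0.049, less than their own SEs of 0.08 to 0.12. In order of their change they included TARS, GARS, WARS, SARS, KARS, HARS, EPRS, QARS, LARS, NARS, CARS and MARS. By catalytic class, with EPRS counted in class I only, 8 of 9 class I enzymes were higher in mean level with Stau1 (median 0.029). So were 3 of 10 class II enzymes (median -0.026), and with median scaling 9 of 9 and 9 of 10 were higher. Of the 7 tested members of the multisynthetase complex, 6 were higher (median 0.024), and 7 of 7 with median scaling. Of all synthetases 11 of 19 were higher with quantiles and 18 of 19 with median scaling, and of the other members 11 and 15 of 19, while that scaling moved the median of all kept rows to 0.068. No order of the classes was read from these counts.

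The 11 tested members with TGATGNAA in their window had a median change of 0.031, 6 higher and 5 lower, and the 20 with a window but without these letters had 0.012. Among the former were both AARS (0.22) and ASNS (-0.18).

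The spread over arrays was unequal between the groups, in the members about as often as in all rows. The SD over control arrays was larger than that over Stau1 arrays in 27 of 38 members, with medians of 0.15 and 0.076, and in 9090 of all 13285 kept rows, with medians of 0.17 and 0.12. Taken as the deviation of each gene from its own mean over the arrays, the median of the 19 other ATF4 members was -0.12 on control replicate 2, 0.088 on control replicate 3 and between -0.030 and 0.070 on the other 4 arrays. Control replicate 2 was the lowest of the 6 arrays for 8 of these 19 genes (42.1%), against 20.1% of all kept rows, and control replicate 3 the highest for 8 of 19 (42.1%), against 14.8%. The members farthest below their own mean on control replicate 2 were PPP1R15A, SLC3A2, DDIT3 and ATF3. For the synthetases the array medians stayed between -0.036 and 0.049. Control replicate 2 was lowest in 7 of 19 and highest in none of them, against 20.1% lowest and 20.1% highest over all kept rows. Control replicates 1 and 3 were each highest in 7 of 19 (36.8%), against 26.9% and 14.8% of all kept rows. What these arrays differ by is not given in the sources used here, and its part in the results was not tested.

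**Figure D3:**
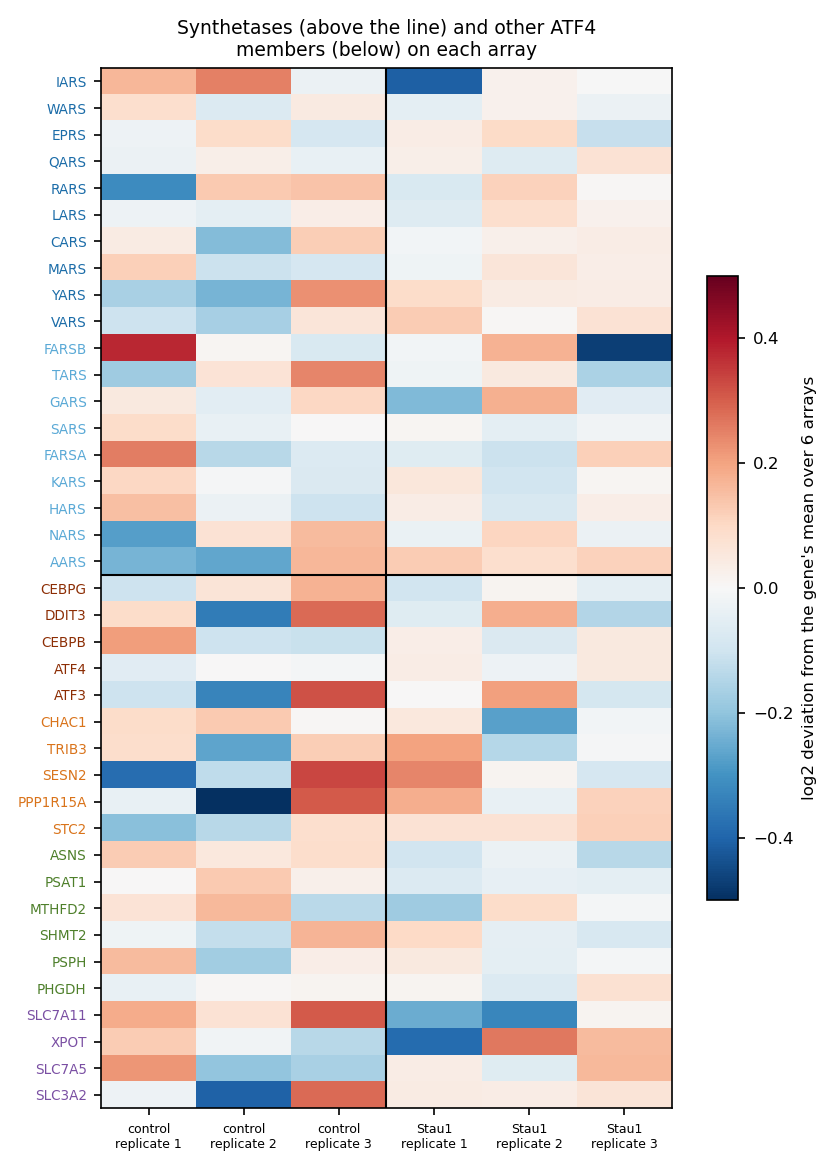
Deviation of 39 of the 40 members (rows) from its own mean over the 6 arrays (columns), in log2 units from blue (lower) to red (higher), with names coloured by role and a line between the synthetases and the other members. Control replicates 2 and 3 differ in opposite directions for PPP1R15A, SLC3A2, DDIT3, ATF3, YARS and AARS, and for most members the columns of the Stau1 arrays are paler.

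Leaving out control replicate 3 changed how many rows were called. Without it 39 of 13285 rows (0.294%) had a limma adjusted p under 0.05, and no member was among them. An unadjusted p under 0.05 was then reached by 4 of 38 members against 12.7% of all kept rows, and these were AARS, YARS, PPP1R15A and STC2, all higher with Stau1. AARS came closest, at 0.36 with an adjusted p of 0.118, followed by YARS at 0.25 (adjusted p = 0.228). The change of PPP1R15A became 0.37 and that of STC2 0.26. ASNS stayed at -0.18 and SLC7A11 was at -0.32. The median of the synthetases was then 0.012 and that of the other members 0.035. When control replicate 2 was left out instead, AARS was at 0.14, YARS at 0.024 and PPP1R15A at -0.049, and the median of the other members was -0.068.

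**Figure D4:**
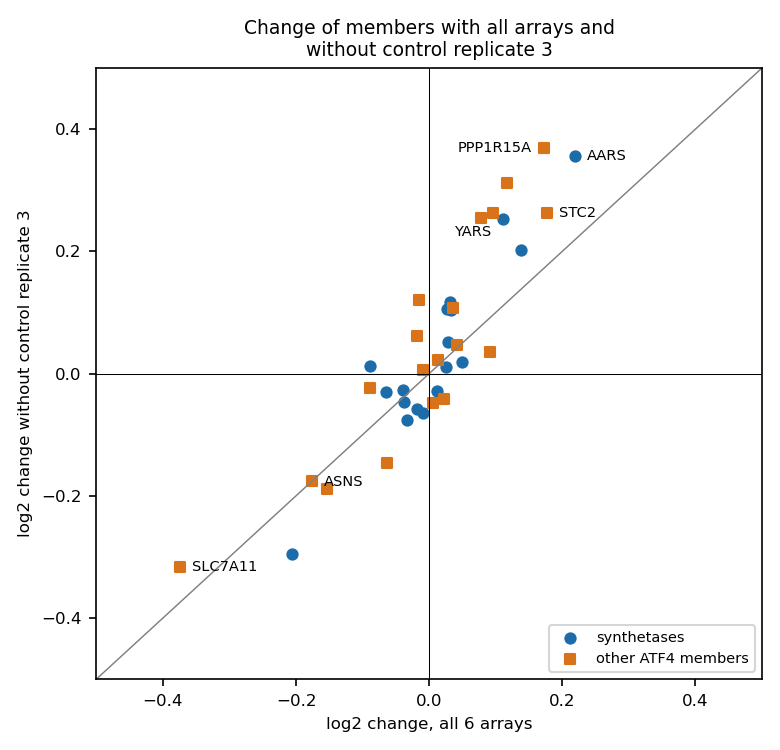
Log2 change (Stau1 minus control) of 37 of the 38 tested members with all 6 arrays (x axis) and without control replicate 3 (y axis), for synthetases (circles) and other ATF4 members (squares), with the line of equality. PPP1R15A, AARS, STC2 and YARS lie above the line in the upper right, and ASNS lies on it.

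No gene of the lists around the ATF4 pathway passed the adjusted threshold either. Of 28 further ATF4 pathway genes, 25 were kept, 13 higher and 12 lower (median 0.010), and 0 reached an adjusted p under 0.05 by limma, with 1 at an unadjusted p under 0.05. This was ATF5, a factor regulated by translation as ATF4 is, with 8.70, 8.85 and 9.38 in control and 9.53, 9.31 and 9.29 with Stau1, a difference of 0.40 (SE 0.16). As in AARS, control replicates 1 and 2 were the lowest arrays and control replicate 3 was level with the Stau1 arrays. The change of ATF5 was 0.60 without control replicate 3, with a limma adjusted p of 0.0836, and 0.26 without control replicate 1. Of 16 genes for the eIF2 kinases, eIF2, eIF2B and their regulators, 15 were in the table and kept, with 7 higher and 8 lower, and 0 passed the adjusted threshold, with 1 at an unadjusted p under 0.05. That gene, GCN1L1, the partner of the amino acid-sensing kinase GCN2, measured 9.56, 9.90 and 9.80 in control and 9.88, 10.05 and 10.18 with Stau1 (difference 0.28, SE 0.12). In the list of further ATF4 pathway genes the Stau1 arrays of SLC7A1 lay wholly above control (0.20) and those of PCK2 wholly below (-0.26). In the eIF2 list those of EIF2AK4 (GCN2) lay wholly above (0.22). Over all kept rows 4.51% lay wholly above and 3.4% wholly below.

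The 17 mitochondrial synthetases, which charge tRNAs inside the organelle, were all detected on every array and had a median change of -0.036, with 12 lower. With median scaling 4 were lower and the median was 0.053, where that of all kept rows was 0.068. None passed in limma, adjusted or unadjusted, and the lowest unadjusted p was that of RARS2, which measured 10.78, 10.63 and 10.55 in control and 10.37, 10.60 and 10.49 with Stau1 (-0.17, SE 0.11). Of the 3 non-enzyme factors of the multisynthetase complex only AIMP2 was kept, at -0.0044. The chaperone arm of the unfolded protein response is run mainly by XBP1 and ATF6. It had 11 of 13 genes lower with Stau1 (median -0.096), against 6726 of all 13285 kept rows (median -0.0021). Under median scaling 9 of 13 were lower (median -0.017), where the median of all kept rows was 0.068. XBP1, itself in this list, was the only 1 of its 13 kept genes whose groups did not overlap. It was lower with Stau1 (-0.15, SE 0.08), and 3.4% of all kept rows lay wholly below control. Under median scaling no gene of the list separated. In this list 0 reached an adjusted p under 0.05 by limma and 1 an unadjusted p under 0.05, ARMET (now MANF), a secreted survival factor, with 13.14, 13.11 and 12.91 in control and 12.93, 12.79 and 12.82 with Stau1 (difference -0.20, SE 0.09).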

How the data were processed

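Total RNA of 6 arrays was compared, 3 control and 3 Stau1, grouped by the transfection in each label. The authors deposited a BeadStudio gene profile without normalization, in which each row averages the probes of a gene. It gave, per the file headers, a signal intensity, a detection p-value, an intensity standard error across beads and, as a score, the mean bead number that the authors deposited for each array. Background was corrected with limma 3.58.1 in R 4.3.3 (normexp, offset 16), with background means and SDs inferred from the detection p-values of the 30932 rows of 1 probe, and quantile normalization and log2 followed. Rows detected at p under 0.05 on at least 3 of 6 arrays were kept (35.1%). limma (lmFit, eBayes with trend) was fitted across all of them with Benjamini-Hochberg adjustment. The study's methods name no test for these arrays, and the t-test they give for other arrays was an alternative. Its results apply a fold change and P-value cut to these arrays, report only a few probes past it, and do not name the test.

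For rows of several probes the detection p is a combined value, which can exceed 0.05 for a bright gene. Detection and the number of arrays limit the precision. Genes given in full were ATF4, ATF3, DDIT3, TRIB3, CHAC1, ASNS, the members of lowest unadjusted p, those of widest control spread, STAU1 and the lowest p of each further list of over 3 genes and of the HEK293T and mitotic markers. The members and lists were chosen with earlier results of these data known. The fit was run on simulated data with independent noise of equal spread in both groups. These arrays had unequal spread, so that run does not show how the fit behaves on them. Promoter windows came from RefSeq (GRCh38.p14), and older symbols were matched through a RefSeq gene table. The nocodazole time printed is that of the labels; the study's methods state more hours. The values of 1 member, counted with the rest, are not reported here. Probe sequences and negative control beads were not used here.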

Additional observations from a re-analysis of the deposited data

How the results depend on the processing

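The count of members, synthetases, other ATF4 members and other listed pathway genes called was 0 under all 17 alternatives, which were fixed with the design. The count of all rows called was 0 under each except leave-one-out, where it ranged from 0 to 39 (39 without control replicate 3). The count of members whose groups do not overlap, 2, was 1 with median scaling, 1 when every array had to reach a detection p under 0.01 (32 members tested, SLC7A11 left out) and from 2 to 10 of 38 when 1 array was left out, where from 12.7% to 29.1% of all kept rows separated (10 members and 29.1% without control replicate 3). With median scaling the median change was 0.0932 for the synthetases and 0.0995 for the other members, where that of all kept rows was 0.068. Array weights gave the lowest adjusted p of a member with all arrays, 0.379.

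Changes near 0 turned in direction: DDIT3 was 0.077 with median scaling and 0.032 with array weights, and RARS was -0.041 with array weights. With 1 array left out the change ranged from -0.068 to 0.25 for ATF3, from -0.19 to 0.12 for DDIT3, from -0.088 to 0.12 for TRIB3, from -0.12 to 0.11 for RARS, from -0.049 to 0.37 for PPP1R15A, from -0.045 to 0.31 for SESN2, from -0.081 to 0.26 for SLC3A2 and from -0.022 to 0.051 for PHGDH. The cause was not tested. For same-numbered arrays the deviations from the group means correlated at 0.015, 0.26 and -0.14, and the numbers were taken as names and not as a pairing; a fit with the replicate block called 0 members and 0 rows (605 rows and 1 member at an unadjusted p under 0.05). The methods' t-test called 0 rows after adjustment and 462 before it.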
